A study of Homo sapiens with 6 samples.

Results

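The 8 genes described here encode the human ligands of NKG2D: ULBP1, ULBP2, ULBP3, RAET1E, RAET1G, RAET1L, MICA and MICB. They were taken as a gene family by name, but the family was picked from a screen of these same arrays in which the difference of ULBP1 between treated and control cells was already known, so the treatment differences of the 8 genes are given as a description, with no test, and support nothing. All 8 had a row with exactly 1 gene symbol, among 18404 genes on the array. MICA had 2 such rows, and the row with the higher mean over the 6 arrays was used. RNA came from BE(2)-C, an established human neuroblastoma cell line with amplified MYCN, grown in medium with 10% dialyzed serum, and was hybridised to Affymetrix gene-level arrays. The BIX01294 group is 3 cultures kept for 24 h in 5 µM of the compound, and the control group is 3 cultures kept for 24 h in 0.05% DMSO. The series design calls the cultures independent. The labels do not say how much DMSO the BIX01294 cultures held. P-values measure only the spread between these samples. BIX01294 is a small-molecule inhibitor of EHMT2 and EHMT1, enzymes that methylate histone H3. All values are log2 expression values as deposited, and differences are BIX01294 minus DMSO on that scale.

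NKG2D is an activating receptor of natural killer (NK) cells and of several kinds of T cell. Its ligands resemble MHC class I heavy chains but present no peptide, and many tumour and stressed cells display them. Engagement of the receptor by a ligand lets the lymphocyte kill the displaying cell, and ligand released from the surface can blunt that recognition. ULBP1, ULBP2, ULBP3 and RAET1L are held in the membrane by a glycosylphosphatidylinositol (GPI) anchor, whereas MICA, MICB, RAET1E and RAET1G have transmembrane forms. The arrays measured RNA of the ligand-bearing cells alone, so neither surface protein nor killing was read.

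ULBP1 and ULBP2 stand side by side on chromosome 6. The sequence before their starts is shown because both windows hold the core of the cAMP response element. ATF and CREB proteins read this family of sites. In the RefSeq order of genes on chromosome 6, MICA and MICB lie in the MHC, next to HLA-B and HLA-C, and the other ligand genes form a separate cluster in the order RAET1E, RAET1G, ULBP2, ULBP1, RAET1L and ULBP3, between LRP11 and PPP1R14C. The 250 bases before the start follow, from RefSeq on build GRCh38.p14, plus strand, 5′ to 3′. The ULBP1 stretch is chr6:149963693-149963942 and the ULBP2 stretch is chr6:149941764-149942013. Capitals mark TGACG on either strand and, in ULBP1, the longer match TTGCGTCA that contains it.
ULBP1: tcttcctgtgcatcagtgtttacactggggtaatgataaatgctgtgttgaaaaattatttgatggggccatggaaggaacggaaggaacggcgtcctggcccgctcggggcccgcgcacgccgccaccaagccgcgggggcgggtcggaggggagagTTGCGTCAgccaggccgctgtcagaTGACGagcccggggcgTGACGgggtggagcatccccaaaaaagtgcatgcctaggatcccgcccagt
ULBP2: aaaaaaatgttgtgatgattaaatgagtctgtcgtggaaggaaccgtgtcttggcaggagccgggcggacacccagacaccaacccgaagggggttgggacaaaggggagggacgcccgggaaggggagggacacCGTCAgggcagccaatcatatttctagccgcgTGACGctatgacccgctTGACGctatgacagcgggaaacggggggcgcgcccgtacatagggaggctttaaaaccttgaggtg

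The windows searched ran from 250 bases before to 50 after each RefSeq start, on both strands, and the motifs were chosen with earlier results and these sequences in view. TGACG occurred 3 times in the ULBP1 window, with first bases at -89, -67 and -51 from the start, and 3 times in the ULBP2 window, at -115, -83 and -66. None of the other 8 windows of the ligand genes held it, RAET1E having 3 starts, against 24.6% of all 35116 windows. The ULBP1 match at -89 lies inside TTGCGTCA, which matches TGACGNAA on the minus strand. That pattern, a variant of the composite site bound by ATF4 with C/EBP proteins, was found in 1.66% of all windows. The more usual composite TGATGNAA was absent from the ULBP1 window, and in ULBP2 it matched once, from base 21 to base 28 after the start. It occurred in 3.62% of all windows. The full cAMP response element, TGACGTCA, was in no ligand window, against 1.85% of all windows. MICA and MICB shared a heat shock element core, GAANNTTC, at -135 and -139, found in no other ligand window and in 6.77% of all windows. The GC box GGGCGG was present in ULBP1, ULBP2, ULBP3, MICA, MICB and RAET1G and in 45.0% of all windows, with 6 matches in ULBP3. CCAAT was found in ULBP2, MICA, MICB, RAET1E and RAET1G and in 34.6% of all windows, and TATAAA in the ULBP1 window, on both strands after its annotated start, and in 11.5% of all windows. A match is a description of letters, and factor binding was not measured here.

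**Figure D1:**
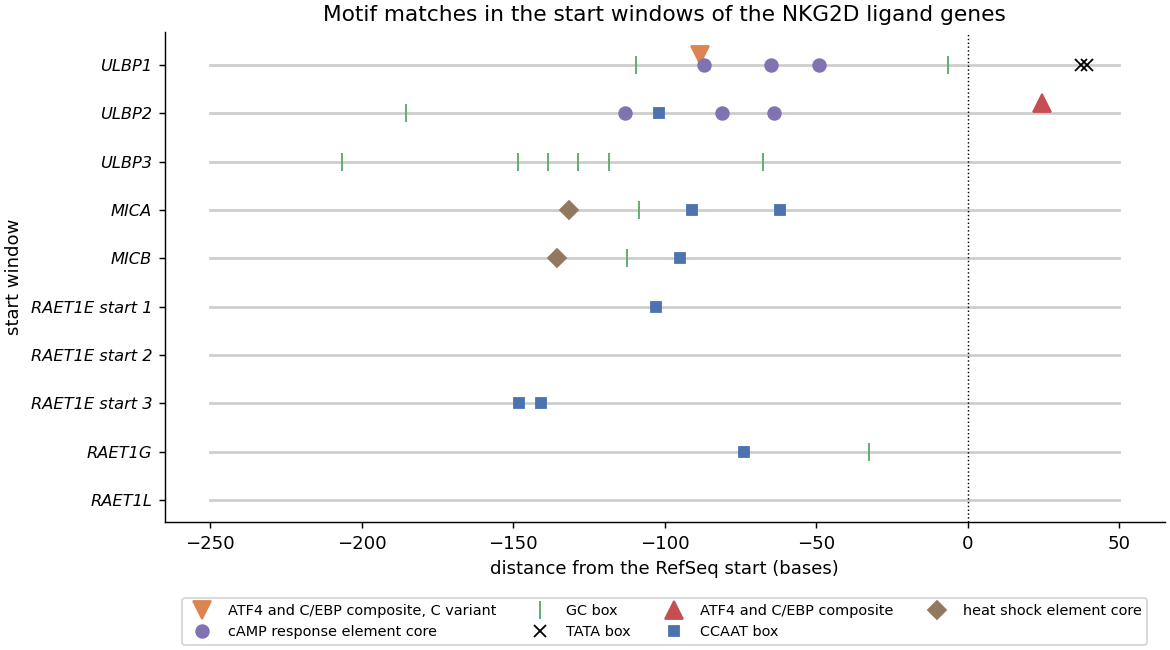
Motif matches in the start windows of the 8 ligand genes (x axis, distance from the RefSeq start in bases; y axis, 1 line per start, 3 for RAET1E; each marker is 1 match on either strand). The cAMP response element core is seen 3 times each in ULBP1 and ULBP2 and in no other window.

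Among the GPI-anchored ligands, ULBP1 was lower in every treated array. It measured 8.68, 8.53 and 8.76 in the DMSO arrays and 6.48, 6.58 and 6.78 in the BIX01294 arrays. The groups did not overlap: the gap between them was 1.75 on the log2 scale, beside standard deviations of 0.11 and 0.15. The difference was -2.04 ± 0.092 (SE; 95% interval -2.25 to -1.83), a 4.12-fold lower level. It ranked 5 of 18404 genes from the lowest, and 0.0489% of genes had a larger difference in either direction. In DMSO the ULBP1 values lay above the median of genes in all 3 arrays, and in BIX01294 below it in all 3 and above the lower quartile.

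ULBP2, whose gene precedes ULBP1 in the cluster, went the other way. It measured 5.93, 5.86 and 5.97 in DMSO and 6.40, 6.24 and 6.34 in BIX01294. The groups did not overlap, with a gap of 0.27 between the highest DMSO and the lowest BIX01294 value. The difference was 0.41 ± 0.064 (SE), a ratio of 1.32. All 3 DMSO values lay under the lower quartile of genes, 5.91 to 6.06 over the arrays, and may be near background, in which case the ratio understates the change.

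ULBP3 and RAET1L, the remaining ligands with a GPI anchor, overlapped between the groups. ULBP3 measured 6.87, 6.97 and 6.72 in DMSO and 6.95, 7.29 and 6.90 in BIX01294, and its difference was 0.19 ± 0.111 (SE; 95% interval -0.06 to 0.45). One BIX01294 array, replicate 2, was high, and without it the difference was 0.07. RAET1L, also called ULBP6, measured 7.07, 6.76 and 7.35 in DMSO and 6.87, 7.05 and 6.91 in BIX01294. Its DMSO arrays spread more widely than its BIX01294 arrays, with standard deviations of 0.29 and 0.09, and the difference of -0.12 ± 0.134 (SE) turned to 0.03 without DMSO replicate 3. For neither gene does the interval reach the size seen in ULBP1.

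Of the ligands with transmembrane forms, MICA was the only one whose groups did not overlap, and by a gap of 0.014. MICA, a polymorphic stress-induced ligand, measured 7.27, 7.30 and 7.67 in DMSO and 6.81, 7.22 and 7.25 in BIX01294. One array in each group stood off, DMSO replicate 3 high and BIX01294 replicate 1 low, and the difference was -0.32 ± 0.144 (SE; 95% interval -0.65 to 0.01). Without BIX01294 replicate 1 it was -0.18. The dimmer MICA row measured 5.23, 5.13 and 5.49 in DMSO and 5.33, 5.27 and 5.33 in BIX01294. Its groups overlapped, with a difference of 0.02 ± 0.097 (SE from a fit over all rows). All 6 of its values lay under the lower quartile of genes, so this row may not register a change.

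MICB, the close relative of MICA, measured 6.39, 6.11 and 6.37 in DMSO and 6.38, 6.36 and 6.26 in BIX01294. The difference was 0.05 ± 0.084 (SE), and the treated values lay inside the range of the controls. RAET1G, also called ULBP5, measured 7.66, 7.73 and 7.80 in DMSO and 7.76, 7.72 and 7.66 in BIX01294. It was the ligand with the smallest difference, -0.02 ± 0.061 (SE; 95% interval -0.16 to 0.12), and all 6 of its values lay above the median of genes. RAET1E, also called ULBP4, measured 4.20, 4.10 and 4.18 in DMSO and 4.08, 4.17 and 4.14 in BIX01294, a difference of -0.03 ± 0.057 (SE). Its 6 values lay under the lower quartile of genes on every array, so a level above background was not shown and a change there could be missed. The antisense transcript RAET1E-AS1 has a row of its own, which differed by -0.06 ± 0.084 (SE).

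**Figure D2:**
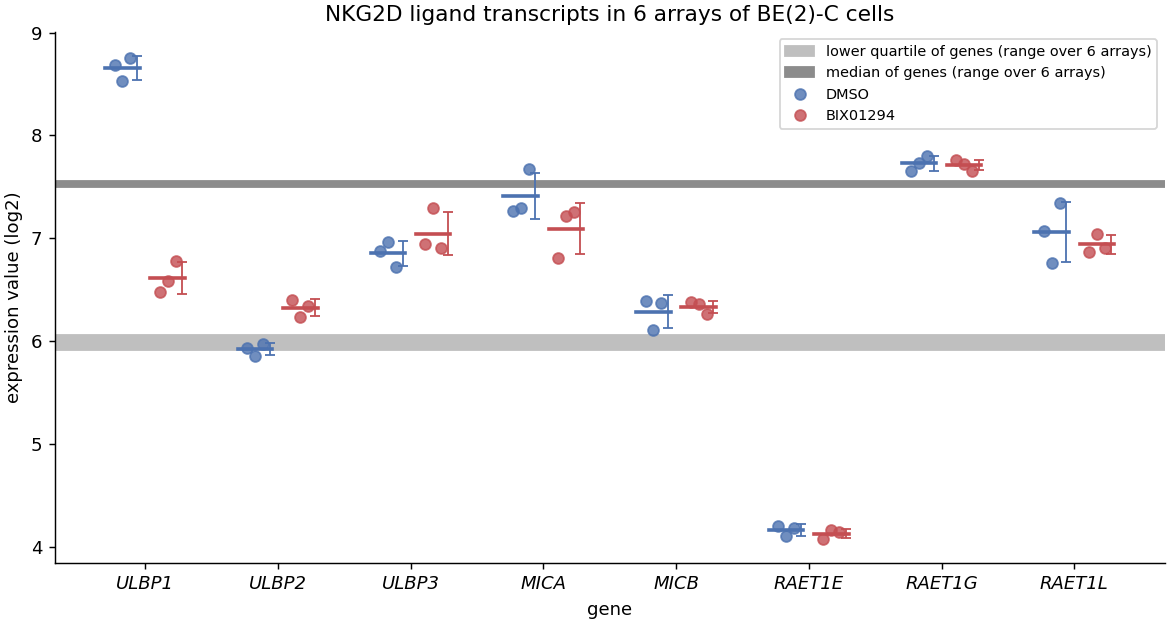
Expression values (y axis, log2) of the 8 NKG2D ligand genes (x axis) in the 3 DMSO and 3 BIX01294 arrays; points are arrays, horizontal lines means, bars ± 1 SD, and grey bands the range over arrays of the lower quartile and median of genes. ULBP1 falls from between 8.53 and 8.76 to between 6.48 and 6.78, while most other ligands overlap between the groups. Levels of different genes come from different probes and are not comparable.

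Of the 8 ligands, 1 was called higher and 1 lower at an adjusted p under 0.05 in limma's fit over all genes (2 of 8, or 25%), against 23.6% of all genes called, 12.9% higher and 10.7% lower. The groups did not overlap in 3 of 8, against 40.1% of all genes. These counts come from the contrast with which the family was picked, and nothing is read from them. The median of the 8 differences was -0.03, and that of all genes -0.01. Within groups the ligands varied unequally. The pooled within-group standard deviation ran from 0.050 for RAET1E to 0.236 for MICA, against a median of 0.086 over all genes, and for MICA, RAET1L and ULBP3 it exceeded that of 98.0%, 96.7% and 91.3% of genes. Several ligand genes are close paralogs, so probes may share targets between them.

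**Figure D3:**
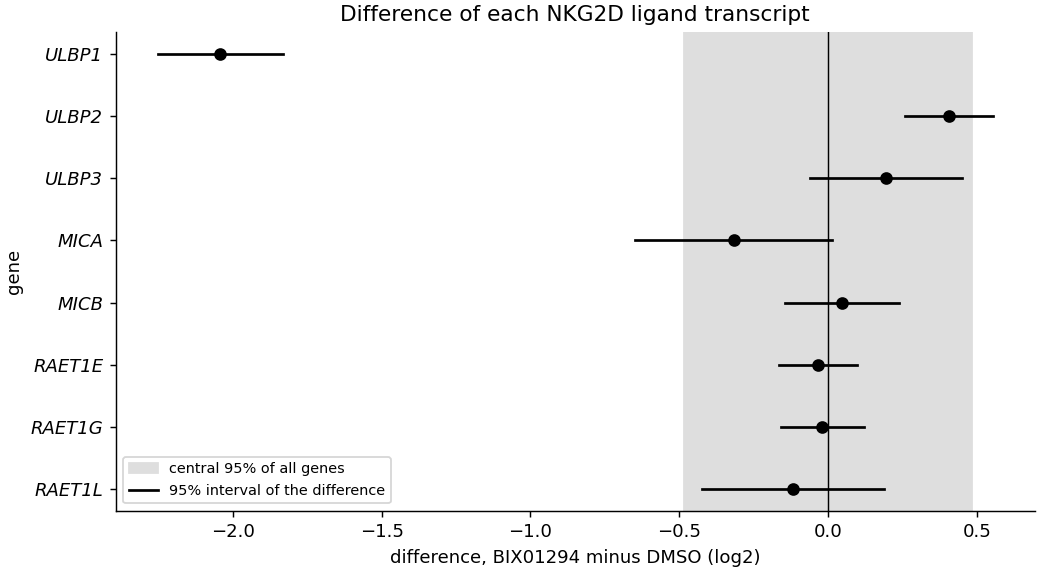
Difference between BIX01294 and DMSO (x axis, log2) for each ligand gene (y axis); points are differences, lines 95% intervals from the fit over all genes, and the grey band holds the central 95% of all genes, from -0.48 to 0.48. ULBP1 alone lies outside the band, at -2.04.

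Checked against its label, the RNA carried the genes of sympathoadrenal neuroblastoma. All 10 measured markers of that identity lay above the median of genes on every array, and their mean level was 11.3 on all DMSO arrays and 11.2 to 11.3 on BIX01294 arrays. Of them 2 rose, ISL1 by 0.34 and GATA2 by 0.21, and 3 fell, among them GATA3 by 0.23 (50% called, against 23.6% of all genes). Leaving out single arrays gave 1 to 2 rises and 0 to 2 falls. Of 12 lymphocyte and NK cell markers, 0 were called in limma, against 23.6% of all genes, and 0 had an unadjusted p under 0.05. Among these markers 7 lay below the lower quartile on every array, and only CD7 lay above the median on every array. Their mean level ran from 5.66 to 5.83 in DMSO and from 5.69 to 5.78 in BIX01294. Among 10 fibroblast and mesenchymal markers, 4 were called lower and 1 higher (50% called, against 23.6% of all genes). PDGFRB differed by -1.16, DCN by -1.50, LUM by -0.62 and PDGFRA by -0.42, and THY1 by 0.44, while COL1A1 differed by -0.00 and COL3A1 by -0.01. The mean of that list fell from between 7.53 and 7.59 in DMSO to between 7.16 and 7.25 in BIX01294, alongside ULBP1. Its part in the ULBP1 difference was not tested, and in bulk RNA fewer cells of a type and less RNA per cell cannot be told apart. Of 9 myeloid markers only CD68, also a lysosomal protein, was called, rising by 0.55 (11.1% called, against 23.6% of all genes). Of 5 measured Schwann cell markers only S100B was called, rising by 0.42 (20% called). The S100B call was lost without BIX01294 replicate 1 or 3.

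Genes whose profile was nearest to that of ULBP1 were ranked by the Euclidean distance between values centred on each gene's mean, over 6 arrays and 9201 genes at or above the median level. Like the level of ULBP1 itself, the ranking is a description, and all arrays are shared. The nearest was STC2, a secreted glycoprotein, at a distance of 0.33, where a flat profile lies 2.51 from ULBP1. Its values were 9.16, 9.11 and 8.99 in DMSO and 6.93, 6.97 and 6.97 in BIX01294. Next came KLHL24, a substrate adaptor of a ubiquitin ligase (0.49), PDCD4, an inhibitor of translation initiation (0.53), ASNS, asparagine synthetase (0.56), and SESN2, a stress-induced regulator of mTORC1 (0.60). All 5 were lower in every BIX01294 array than in any DMSO array, with differences from -2.13 for STC2 to -1.69 for ASNS. None of the 5 was among the 5 genes most correlated with ULBP1, so the order depends on the measure.

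**Figure D4:**
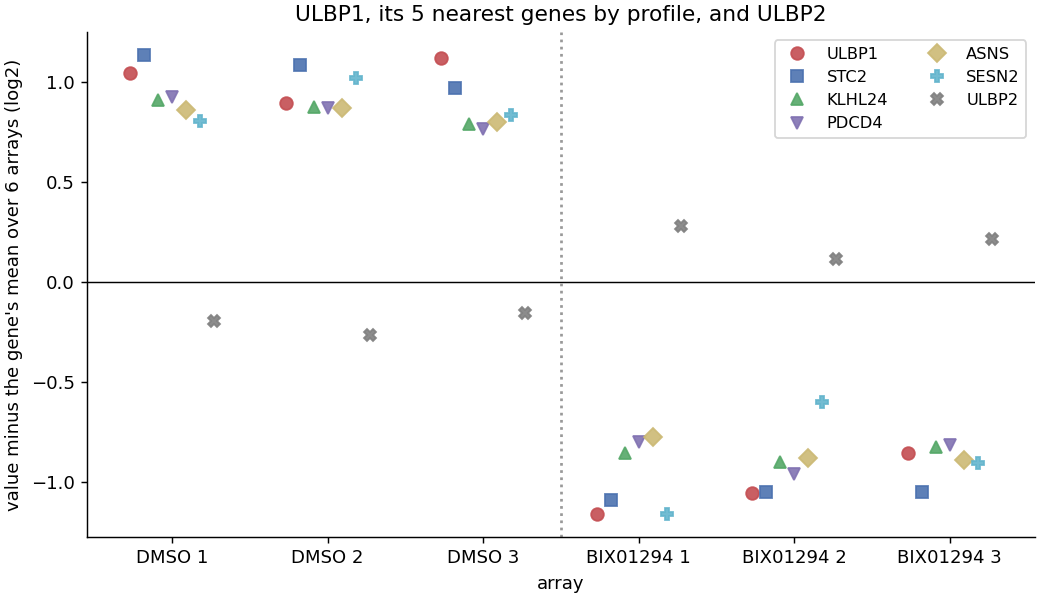
Values minus each gene's mean over 6 arrays (y axis, log2) in each array (x axis) for ULBP1, its 5 nearest genes and ULBP2. The nearest genes follow ULBP1 above 0 in DMSO and below 0 in BIX01294, and ULBP2 lies on the opposite side in each array.

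STC2, ASNS and SESN2 are also members of a list of genes linked to ATF4, a transcription factor made when cells are short of amino acids or under other stress, which is known to drive ULBP1 transcription. In that list 22 of 24 genes fell and none rose, against 10.7% of all genes lower, and its median was -1.03. The list was written with earlier results of these arrays known, and its count is therefore no independent sign of a direction. CHAC1, a glutathione-degrading enzyme, differed by -3.09, the mTORC1 inhibitor DDIT4 by -3.01, the cystine transporter SLC7A11 by -2.52 and STC2 by -2.13, with adjusted p-values in limma of 9.98e-07 or lower. The genes that did not pass were PPP1R15A, -0.18, and NUPR1, -0.04. ATF4 itself fell by 0.52 in its brighter row (adjusted p = 0.000759 in limma), from 11.55 ± 0.01 to 11.02 ± 0.09 (SD, n = 3 per group). Its other row averaged 10.72 in DMSO and 10.82 in BIX01294, a difference of 0.10 ± 0.061 (SE from a fit over all rows). With both rows averaged, ATF4 differed by -0.21. TGATGNAA was present in the start windows of 7 of the 22 ATF4-linked genes with a window and in 20.0% of their 35 windows, against 3.62% of all windows. TGACGNAA, the form in the ULBP1 window, was in none of their 35 windows, and TGACG was in 25.7% of them, against 24.6% of all windows.

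Other regulators named in the literature on NKG2D ligands, 27 measured with ATF4 among them, gave 6 rises and 3 falls (33.3% called, against 23.6% of all genes), with a median of 0.10. NFKB1, a subunit of NF-κB, rose by 0.53 ± 0.073 (SE), STAT3 rose by 0.33 and the histone deacetylase HDAC1 fell by 0.37. The checkpoint kinases ATR and CHEK1 rose by 0.33 and 0.31, while ATM fell by 0.19 (adjusted p = 0.04935 in limma). With single arrays left out, the list gave 4 to 5 rises and 2 to 3 falls. SPCS2, a signal peptidase subunit, rose by 0.21, and DICER1, which makes microRNAs, by 0.19. RBM4 was not analysed here.

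In the machinery that acts on the ligand proteins, the main sheddases did not pass the test. ADAM10 differed by -0.09 ± 0.061 (SE; adjusted p = 0.365 in limma) and ADAM17 by 0.00 ± 0.061 (SE; adjusted p = 0.991). Of 11 shedding genes, 3 rose and 1 fell (36.4% called, against 23.6% of all genes), and 2 fell without BIX01294 replicate 2. TIMP1, an inhibitor of metalloproteinases, rose from 11.42 ± 0.03 to 12.11 ± 0.08 (SD, n = 3 per group), a 1.62-fold change. PDIA6, the disulfide isomerase ERp5 that assists the release of MICA, rose by 0.42 and RHBDF2, a cofactor of ADAM17, by 0.26, and the metalloproteinase MMP2 fell by 0.25. The list median was -0.09.

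Of 26 genes that build or attach the GPI anchor used by ULBP1, ULBP2, ULBP3 and RAET1L, 4 rose and 2 fell (23.1%, against 23.6% of all genes), with a median of -0.01. PIGW, an acyltransferase of anchor synthesis, rose from 9.65 ± 0.13 to 10.59 ± 0.02 (SD, n = 3 per group), PIGX rose by 0.38, DPM3 fell by 0.32 and PGAP1 fell by 0.25. Without BIX01294 replicate 3 the rises were 2, and without DMSO replicate 2 the falls were 1.

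On the receptor side, 0 of 8 measured genes of NK cell receptors and their signalling were called in limma, against 23.6% of all genes. These were HCST, TYROBP, VAV1, GRB2 and PIK3R1, and KLRC1, KLRC2 and KLRD1, which belong to receptors other than NKG2D. On every array 4 of the 8 lay below the lower quartile of genes, so a change there could be missed. An unadjusted p under 0.05 in limma was found for 1 gene. That gene was the adaptor GRB2, at 0.16 ± 0.053 (SE; adjusted p = 0.0585), which passed in 5 of 16 alternative fits. HCST, the DAP10 adaptor of NKG2D, measured 6.34 ± 0.11 in DMSO and 6.35 ± 0.11 in BIX01294 (SD, n = 3 per group). KLRK1, which encodes NKG2D, was not analysed here.

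Of 23 measured ligands of other NK cell receptors and immune checkpoints, 8 rose and 2 fell (43.5% called, against 23.6% of all genes), with a median of 0.10. ICAM2, an adhesion ligand, rose from 11.01 ± 0.02 to 11.66 ± 0.08 (SD, n = 3 per group), and its adjusted p in limma was 0.000301. NCR3LG1, the NKp30 ligand B7-H6, rose from 9.52 ± 0.05 to 10.10 ± 0.05 (SD, n = 3 per group), a 1.49-fold change. CD58, the ligand of CD2, rose by 0.53, PCNA, a replication clamp that also binds NKp44, by 0.53, and the checkpoint molecule CD276 by 0.34. Of the ligands of the activating receptor DNAM-1, PVR rose by 0.27 ± 0.057 (SE) and NECTIN2 fell by 0.21 ± 0.059 (SE). CADM1, an adhesion molecule, fell by 0.32. NECTIN2 lost its call when any array other than DMSO replicate 3 was left out, with adjusted p-values in limma up to 0.124 and 1 fall in the list.

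Among 15 measured genes of MHC class I antigen presentation, 4 rose and 1 fell (33.3% called, against 23.6% of all genes). The chaperones calreticulin (CALR) and calnexin (CANX) rose by 0.58 and 0.22, TAPBPL by 0.30 and the peptide transporter TAP2 by 0.26, and the proteasome activator subunit PSME1 fell by 0.43. B2M, the light chain of class I molecules, differed by -0.16 ± 0.069 (SE; adjusted p = 0.146 in limma) and passed in 4 of 16 alternative fits. Without DMSO replicate 1 or BIX01294 replicate 3 the rises were 2, and without BIX01294 replicate 1 the falls were 2. The heavy chain genes of class I were not analysed here. Of 10 other class I-like genes only FCGRT passed, at -0.17 (10% called, against 23.6% of all genes). It lost its call whichever array was left out, with adjusted p-values in limma from 0.0504 to 0.141. On every array 5 of the 10 lay below the lower quartile of genes, so a change there could be missed. Of 13 measured genes of death receptors and their signalling 2 rose, the adaptor FADD by 0.32 and the caspase inhibitor XIAP by 0.18. None fell (15.4% called, against 23.6% of all genes), and the measured receptors themselves were not called. XIAP lost its call whichever array was left out.

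Of 12 neighbours of the ULBP and RAET1 cluster on chromosome 6, 3 rose and 1 fell (33.3% called, against 23.6% of all genes), with differences between -0.25 (MTHFD1L, a mitochondrial folate enzyme) and 0.26 (ZBTB2). LRP11, the gene next to RAET1E, rose by 0.23, AKAP12 by 0.19, and PPP1R14C on the other side of the cluster differed by 0.05 ± 0.074 (SE). Leaving out DMSO replicate 1, DMSO replicate 3 or any BIX01294 array left 1 rise, and among these fits the fall of MTHFD1L was kept only without DMSO replicate 3. Of 11 measured neighbours of MICA and MICB, NFKBIL1 alone passed, at -0.19 (9.09% called, against 23.6% of all genes). Among the fits that left out 1 array, it kept its call only without BIX01294 replicate 2.

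**Figure D5:**
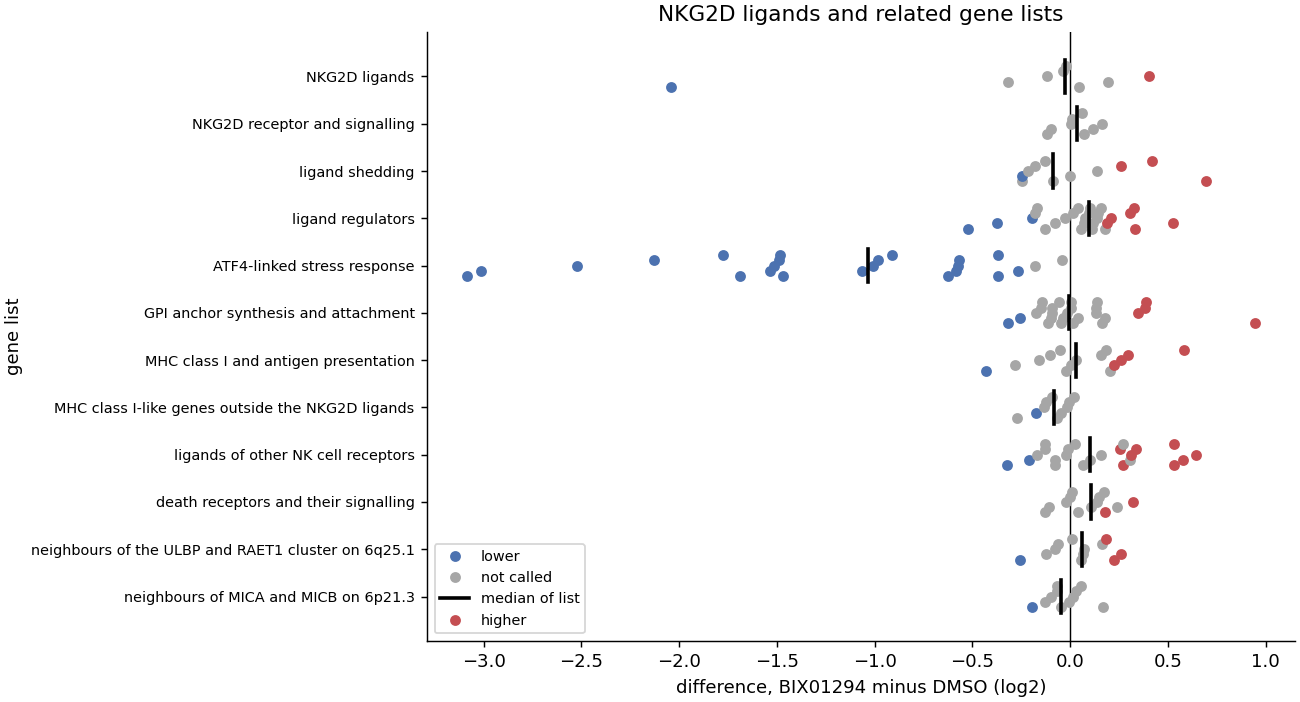
Differences between BIX01294 and DMSO (x axis, log2) for the ligands and 11 related gene lists (y axis); each point is a gene, coloured by its call at an adjusted p under 0.05 in limma, and black bars are list medians. ULBP1 at -2.04 lies beyond every gene plotted outside the ATF4-linked list.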

How the data were processed

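The deposited table holds log2 expression values, 1 per transcript cluster and array, and was used as deposited. The scale was read from the values (1.93 to 14.93), and Partek is the only tool in the submitters' processing notes. How background, scaling between arrays and probe summaries were handled is not given in the sources used here. The table has no detection call, and 6 arrays limit the precision. Of 32321 rows, 19158 had exactly 1 symbol in the platform annotation, updated through RefSeq (GRCh38.p14) for 19128. The row with the highest mean per gene was kept (637 of 18404 genes had several). limma 3.58.1 in R 4.3.3 was fitted with treatment as its only term, two-sided, with Benjamini-Hochberg adjustment over 18404 genes and a threshold of 0.05. The script was tested on simulated data. No filter on dim genes was applied, and no set test was run. Replicates within a group differed by a median of 0.07 to 0.10 and were kept as separate samples. Members, lists, motifs and alternatives were chosen with earlier results of these data known. The genes named are the 8 ligands, up to 4 called genes with the smallest p in each of the other lists (or the largest difference where none passed), 9 fixed genes (ATF4, RBM4, ADAM10, ADAM17, B2M, PVR, NECTIN2, KLRK1, HCST) and the 5 genes nearest to ULBP1. Other list members given with values were chosen after their values were seen. Promoter sequences are RefSeq's, and all 8 genes matched. Alternatives were 2 scalings, 2 filters on dim genes, 2 rules for genes with several rows, array weights, an intensity trend with robust variance, a block for the replicate number, rows with several symbols, and leaving out each array.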

Additional observations from a re-analysis of the deposited data

How the results depend on the processing

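ULBP1 stayed between -2.12 and -1.97 in all 16 alternatives, and ULBP2 between 0.37 and 0.45 in the 15 that tested it; both were called in each of these. The number of ligands called was 2 in every alternative but 1: it was 1 without genes below the median, where only 2 ligands were left to test. No other ligand was called in any alternative, and MICB, RAET1G and RAET1L changed sign in 1, 3 and 1 of theirs. Calls of the ligands come from the contrast with which the family was picked, so nothing is read from their number in any fit. Calls over all genes ran from 3018 to 5324, against 4349, and the share of higher calls moved from 54.7% to 64.3% with arrays centred on their medians. With the replicate block, ULBP1 differed by -2.04, the ligands called numbered 2 and the genes 3641. The numbers were not taken as pairs, since deviations of same-numbered arrays correlated at 0.19, -0.18 and 0.05. Of 44 named genes called, 31 kept call and direction in every alternative that tested them and none reversed. Falls in the antigen presentation list rose from 1 to 4 with quantile normalization, and falls among regulators from 3 to 5. Levels near background and the unstated scaling limit what the dim ligands can show.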
